A study of Mus musculus with 6 samples.

Results

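The KEGG lysosome genes are those whose entry in the deposited gene annotation lists the KEGG lysosome pathway, which gave 135 of the 78298 genes in the count table. They comprised 60 hydrolases, 5 luminal partner proteins of the hydrolases, 24 membrane proteins, 14 genes of the proton pump, and 32 genes for sorting and coat proteins that carry enzymes to the organelle. RENCA is an established mouse renal adenocarcinoma line. The oe-AQP1 cells carried a lentivirus with the mouse Aqp1 coding sequence under the ubiquitin C promoter, and the oe-NC cells carried the matching empty vector without the insert. Both lines had gone through 14 days of selection in 2 μg/mL puromycin. The culture medium that the paper describes also held fetal bovine serum, penicillin and streptomycin. The labels speak of stably transduced clones without saying how many made up each line. Bulk RNA of 3 samples per line was sequenced, to ask what changes in these cells when the water channel AQP1 is overexpressed.

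Lysosomes are acidic organelles in which hydrolases break down proteins, glycans, lipids and nucleic acids, and a proton pump of the V-ATPase type keeps their lumen acidic. Soluble hydrolases are tagged with mannose 6-phosphate in the Golgi and carried by receptors and coated vesicles, while membrane proteins such as the LAMP family form the boundary and move products out. In the kidney, proximal tubule cells take up filtered proteins through megalin and degrade them in lysosomes.

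The oe-AQP1 samples held 19758517.73, 21920898.67 and 20468700.71 expected counts and the oe-NC samples 19788719.78, 18385714.02 and 21396273.57, in the order of samples 1 to 3. Of these the lysosome genes took 1.56%, 1.55% and 1.55% in oe-AQP1 samples 1 to 3 and 1.63%, 1.64% and 1.63% in oe-NC samples 1 to 3. The share was lower in all oe-AQP1 samples, and the groups did not overlap. Levels are given as CPM, in the unit of edgeR's cpm function, with library sizes scaled by TMM factors, and as mean ± SD over n = 3 samples where a mean is printed. Fold changes are on the log2 scale (log2FC), positive where oe-AQP1 was higher, and FDR is the limma-voom p-value after Benjamini-Hochberg adjustment over all genes tested. The series calls the samples biological replicates but does not describe separate cultures or transductions. The p-values measure the spread between these samples, which may be technical in part or whole. oe-NC sample 1 stood apart, with a chi-square per gene of 9.47 and 11.1 against the other oe-NC samples, where every other pair within a group gave between 1.71 and 2.04.

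Aqp1, the gene that the virus carried, had 390, 389 and 381 CPM in oe-AQP1 samples 1 to 3 and 2.09, 1.37 and 2.11 CPM in oe-NC samples 1 to 3. All oe-AQP1 samples were far above all oe-NC samples (log2FC = 7.70 ± 0.16 (SE), FDR = 1.34e-10). Among 12 markers of renal epithelium, Krt8 was the most abundant per kilobase and Pax8 was present at 164 ± 7.03 against 172 ± 7.08 CPM, while Epcam had no count in any sample. The summed level of these 12 genes was 905, 888 and 874 CPM in the oe-AQP1 samples and 1176, 1078 and 1062 CPM in the oe-NC samples, lower in every oe-AQP1 sample. Of the 11 tested, 6 were lower at FDR under 0.05 (54.5%, where 16.6% of all genes tested were), among them megalin, Lrp2 (log2FC = -0.93, FDR = 1.56e-05), and 5 did not pass. Of the 6, 1 was lost with some single sample left out (Krt19, FDR up to 0.144). The part of these markers in the results below was not tested.

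Of the 135 lysosome genes, 116 passed the filter on low counts and were tested. At FDR under 0.05, 16 were higher in oe-AQP1 cells, or 13.8%, where 16.0% of all 15522 genes tested were. In the opposite direction, 44 were lower, or 37.9%, where 16.6% of all genes tested were. With a further threshold of an absolute log2FC above 1, 2 were higher, Tcirg1 and, at few counts, Ctss, where 4.39% of all genes tested were. The largest decrease was a log2FC of -0.85, so no lysosome gene was lower by that threshold at any p-value. Past both thresholds together, 0.844% of all genes tested were lower. Under a filter of 10 or more counts in all samples, Ctss was not tested and 1 gene passed both thresholds. The median log2FC was -0.10 over the lysosome genes and 0.00 over all genes tested. Among the 11847 protein-coding genes tested, 16.2% were higher, 20.3% were lower and the median log2FC was -0.02. Without oe-NC sample 1, 19 lysosome genes were higher and 53 lower, while 3125 and 3331 of all genes were. Without oe-AQP1 sample 2, 10 lysosome genes were higher and 34 lower, while 1856 and 1745 of all genes were. In bulk RNA, fewer cells with a transcript and less of it per cell cannot be told apart. Genes named below as the largest increases or decreases of their class were required to have groups without overlap. Their lack of overlap follows from that rule and is no separate result.

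**Figure D1:**
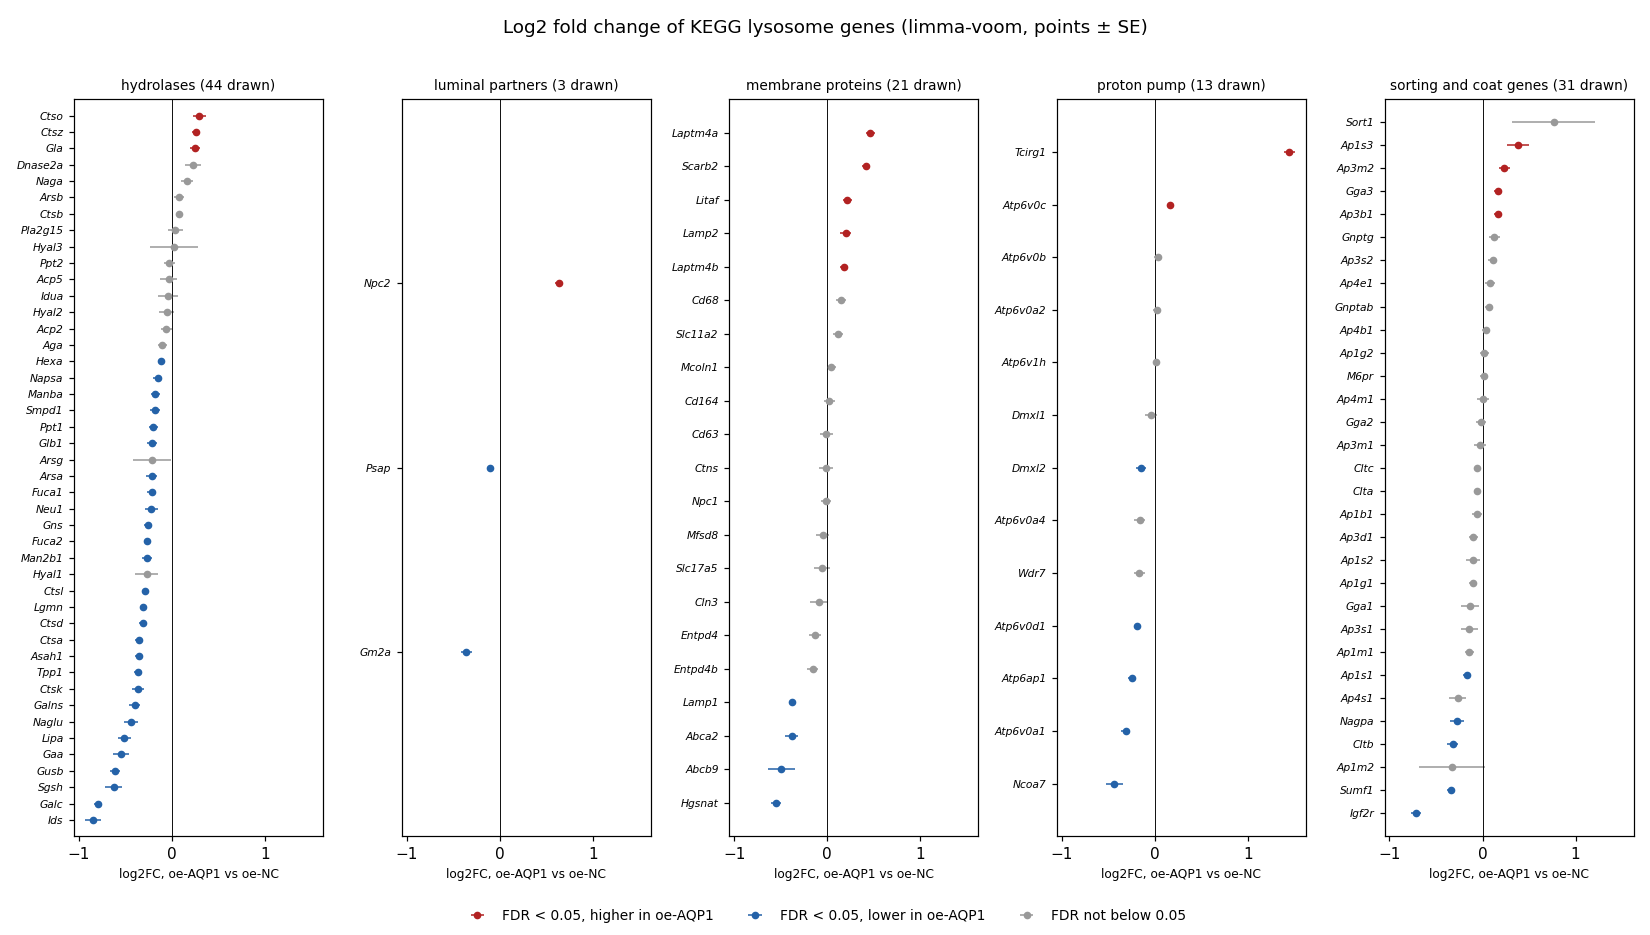
Log2FC of oe-AQP1 against oe-NC (horizontal axis, log2 units, limma-voom, bars ± SE) for 112 tested lysosome genes in 5 panels by role, coloured by whether FDR was under 0.05 and in which direction. Ctss, at few counts, is not drawn, nor are some other genes, and most hydrolases lie left of 0 with Tcirg1 at 1.44 farthest to the right of the genes drawn.

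Hydrolases made up 28 of the 44 lower genes. Of 60, 47 were tested, of which 59.6% were lower and 4 (8.5%) higher, where 16.6% and 16.0% of all genes tested were, with a median log2FC of -0.22, which the size given to Ctss does not change. Leaving out single samples gave 21 lower (without oe-AQP1 sample 3) to 30 (without oe-NC sample 1), and 3 higher (without oe-AQP1 sample 2) to 6 (without oe-NC sample 1). Over all genes the same gave 1745 to 3331 lower and 1856 to 3125 higher. Their summed level was 5914, 5891 and 5854 CPM in the oe-AQP1 samples and 6984, 6756 and 6683 CPM in the oe-NC samples. Every oe-AQP1 sample lay below every oe-NC sample, and oe-NC sample 1 was the highest.

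Proteases were lower in 7 of 11 tested cases (63.6%) and higher in 3 (27.3%), beside 16.6% and 16.0% of all genes tested, and the 3 include Ctss, which the low-count filter kept through the samples where it was high. The 7 include Napsa, named after its values were seen, which did not pass with some single sample left out (FDR up to 0.095) or with DESeq2. Cathepsin D (Ctsd), the main aspartic protease of the organelle and the most abundant hydrolase here at 503 CPM per kilobase of transcript, had 954, 966 and 940 CPM in oe-AQP1 samples 1 to 3 and 1257, 1163 and 1134 CPM in oe-NC samples 1 to 3. It fell without overlap between groups (log2FC = -0.31 ± 0.04 (SE), FDR = 0.000228). Cathepsin L (Ctsl), a cysteine endopeptidase, had 572, 572 and 583 CPM in oe-AQP1 samples 1 to 3 and 692, 712 and 701 CPM in oe-NC samples 1 to 3, and its groups were also separate (log2FC = -0.29 ± 0.03 (SE), FDR = 5.74e-05). Legumain (Lgmn), which cuts after asparagine and matures other cathepsins, was at 349 ± 1.56 against 431 ± 14.4 CPM and fell (log2FC = -0.31, FDR = 0.000115). Tripeptidyl peptidase Tpp1 (135 ± 4.45 against 175 ± 5.47 CPM, log2FC = -0.36, FDR = 0.000113) and the carboxypeptidase Ctsa, which also stabilises sialidase Neu1 and β-galactosidase Glb1 (189 ± 4.23 against 242 ± 9.79 CPM, log2FC = -0.35, FDR = 0.000115), were lower as well.

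Some other cathepsins were higher. Cathepsin Z (Ctsz), a carboxypeptidase, had 476, 460 and 449 CPM in oe-AQP1 samples 1 to 3 and 392, 378 and 389 CPM in oe-NC samples 1 to 3, so that the lowest oe-AQP1 sample was above the highest oe-NC sample (log2FC = 0.26 ± 0.04 (SE), FDR = 0.000395). Ctso, a cysteine protease, was higher at 26.2 ± 1.21 against 21.4 ± 1.59 CPM (log2FC = 0.29, FDR = 0.0111), but did not pass without oe-AQP1 sample 2 (log2FC = 0.28, FDR = 0.0504). Cathepsin B (Ctsb), which per kilobase was the next most abundant protease after Ctsd at 135 CPM per kilobase, had 660 ± 4.3 against 627 ± 8.43 CPM and did not pass the threshold (log2FC = 0.07, FDR = 0.0819), although it did without oe-NC sample 1 (log2FC = 0.08, FDR = 0.000691), with sample quality weights (FDR = 0.013) and with scaling by library size only (FDR = 0.0448). Cathepsin S (Ctss, chr3:95433963-95463717 on GRCm39), the protease that trims the invariant chain in antigen-presenting cells, had 10, 13 and 17 counts in oe-AQP1 samples 1 to 3 and 2, 1 and 0 in oe-NC samples 1 to 3. Its 40 counts against 3 gave a ratio per library total of 12.8 with an exact 95% counting interval of 4.07 to 64.6. Since the filter kept it through the oe-AQP1 samples alone, Ctss had to differ, and its place past both thresholds is a description. Requiring at least 10 counts in every sample removed it from the test.

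Glycosidases, which take sugars off glycans and glycolipids, were lower in 12 of 20 tested cases and higher in 1, beside 16.6% and 16.0% of all genes tested. Galactosylceramidase (Galc), which degrades galactosylceramide of membranes, had 98.4, 96.5 and 99.5 CPM in oe-AQP1 samples 1 to 3 and 166, 172 and 172 CPM in oe-NC samples 1 to 3. The groups lay far apart relative to their spread (log2FC = -0.80 ± 0.04 (SE), FDR = 1.27e-07). β-Glucuronidase (Gusb) was lower at 38.6 ± 1.34 against 59.1 ± 1.51 CPM (log2FC = -0.61, FDR = 8.35e-06), and acid α-glucosidase (Gaa), which degrades glycogen, was at 131, 127 and 118 against 214, 170 and 170 CPM (log2FC = -0.55 ± 0.09 (SE), FDR = 0.000741). In Gaa the oe-NC mean was raised by sample 1, and the groups did not overlap. Hexa, which acts on gangliosides, was slightly lower (149 ± 1.19 against 161 ± 1.64 CPM, log2FC = -0.12, FDR = 0.025). β-Galactosidase Glb1 was lower (log2FC = -0.21, FDR = 0.0127), and α-galactosidase A (Gla) was the glycosidase that rose (38.4, 37.2 and 37.5 against 31.3, 33 and 30.8 CPM, log2FC = 0.25 ± 0.05 (SE), FDR = 0.00483). Hexa did not pass when any single sample other than oe-NC sample 1 was left out (log2FC from -0.13 to -0.11), nor with DESeq2 (FDR = 0.075) or the replicate block (FDR = 0.0579), and Glb1 did not pass without oe-AQP1 sample 1 (log2FC = -0.19). Neu1 and Manba, also among the 12 and named after their values were seen, did not pass with some single sample left out (FDR up to 0.114 and 0.0757).

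Sulfatases, which remove sulfate from glycosaminoglycans and sulfatides, were lower in 5 of 7 cases (71.4%), beside 16.6% of all genes tested. Of the 5, Arsa, named after its values were seen, did not pass without oe-AQP1 sample 2 or 3. Iduronate-2-sulfatase (Ids) had 11.9, 14.5 and 13.5 CPM in oe-AQP1 samples 1 to 3 and 22.9, 24.3 and 24.6 CPM in oe-NC samples 1 to 3, and showed the largest decrease of all lysosome genes tested (log2FC = -0.85 ± 0.08 (SE), FDR = 2.88e-05). Heparan N-sulfatase (Sgsh) was at 9.71, 10.4 and 10.3 against 17.3, 14.7 and 15.2 CPM (log2FC = -0.63 ± 0.09 (SE), FDR = 0.000412).

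Lipid and thioester hydrolases were lower in 4 of 6 cases (66.7%), beside 16.6% of all genes tested. Of these 4, Smpd1 and Ppt1, a thioesterase named after its values were seen, did not pass without oe-AQP1 sample 2 or 3. Lysosomal acid lipase (Lipa), which frees cholesterol from its esters, was at 35.3, 39.8 and 32.9 against 49.8, 52.8 and 51.4 CPM (log2FC = -0.51 ± 0.07 (SE), FDR = 0.000323). Acid ceramidase (Asah1) had 179, 180 and 178 against 216, 234 and 237 CPM (log2FC = -0.36 ± 0.04 (SE), FDR = 0.000157), with its oe-AQP1 samples almost equal to each other. Acid sphingomyelinase Smpd1 was slightly lower (log2FC = -0.18, FDR = 0.0364), and also did not pass without oe-AQP1 sample 1 or oe-NC sample 2 (log2FC over these 4 omissions from -0.19 to -0.17). Of 4 nucleases and phosphatases, 3 were tested and did not pass.

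Among the luminal partners, prosaposin (Psap), the precursor of the saposins that present lipids to hydrolases, was the most abundant lysosome gene at 729 CPM per kilobase. It had 1879, 1859 and 1844 CPM in oe-AQP1 samples 1 to 3 and 2039, 1989 and 1985 CPM in oe-NC samples 1 to 3, a small decrease without overlap (log2FC = -0.11 ± 0.03 (SE), FDR = 0.012). Npc2, the soluble protein that carries cholesterol out of the lumen, was opposite, with 337, 339 and 337 CPM in oe-AQP1 samples 1 to 3 and 203, 223 and 227 CPM in oe-NC samples 1 to 3. All oe-AQP1 samples were above all oe-NC samples by more than the spread of either group (log2FC = 0.64 ± 0.04 (SE), FDR = 2.58e-06). The GM2 activator Gm2a fell (23.8 ± 0.875 against 30.5 ± 0.763 CPM, log2FC = -0.36, FDR = 0.001). Without oe-AQP1 sample 2 or 3, Psap did not pass (log2FC = -0.11 and -0.10).

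**Figure D2:**
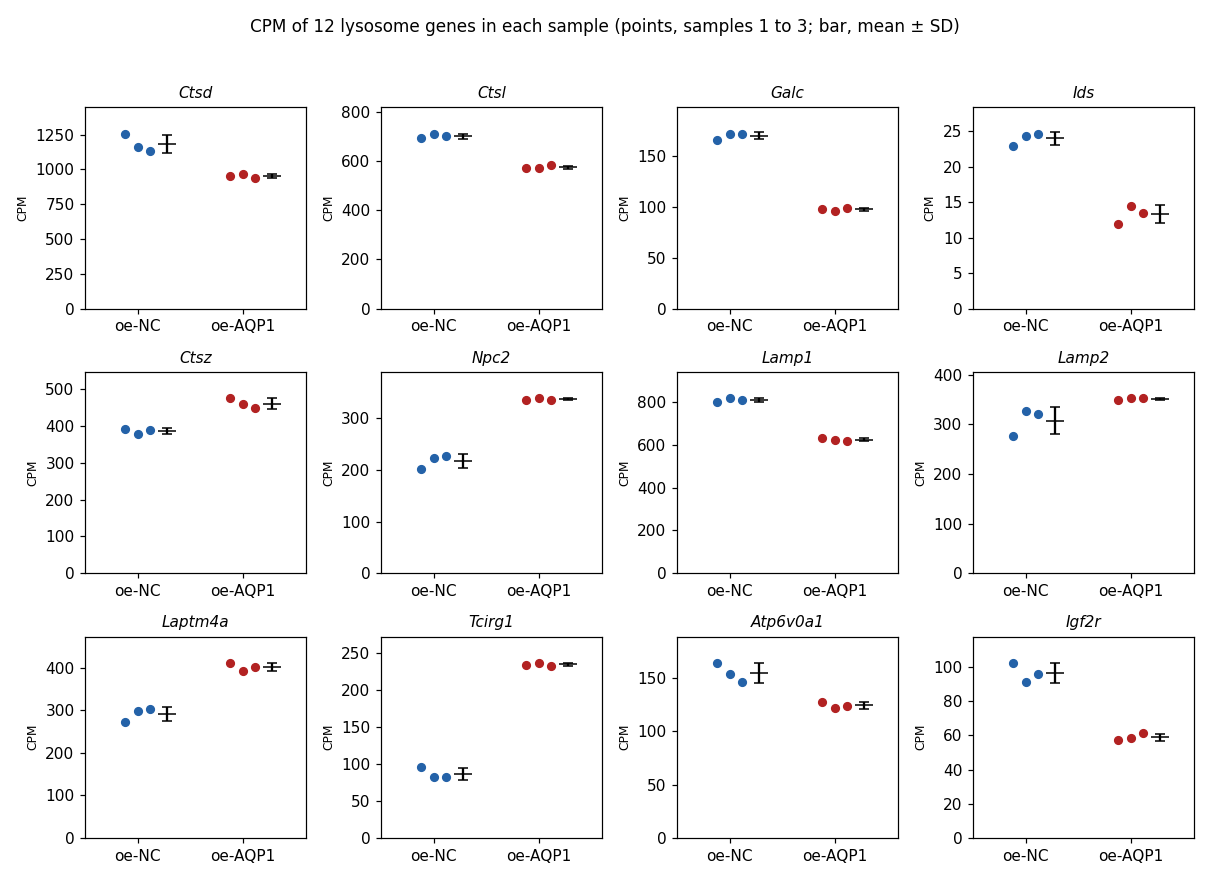
CPM (vertical axis, linear, from 0) of 12 lysosome genes in each of 6 samples, as points for samples 1 to 3 of oe-NC and oe-AQP1 cells with a bar for mean ± SD. In these 12 genes the groups do not overlap, with the widest gap relative to its level in Tcirg1. The 12 are a selection, so their lack of overlap does not describe lysosome genes in general. Of the 116 lysosome genes tested, 77 had groups without overlap. Abundant genes with overlapping groups, such as Cd63 and M6pr, are not drawn. The share without overlap among all genes tested is not given here.

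Of 24 membrane proteins, 21 were tested, 5 were higher (23.8%) and 4 lower (19.0%), where 16.0% and 16.6% of all genes tested were, with a median log2FC of -0.01. Leaving out single samples gave 3 higher (without oe-AQP1 sample 1) to 6 (without oe-NC sample 1), and 3 to 5 lower. Their summed level was 3327, 3262 and 3271 CPM in the oe-AQP1 samples and 3059, 3345 and 3338 CPM in the oe-NC samples, with overlapping groups and a low value in oe-NC sample 1. Lamp1 and Lamp2, the heavily glycosylated proteins that line the membrane, moved apart. Lamp1 had 632, 622 and 619 CPM in oe-AQP1 samples 1 to 3 and 799, 818 and 811 CPM in oe-NC samples 1 to 3 and fell (log2FC = -0.38 ± 0.03 (SE), FDR = 6.74e-06). Lamp2 had 348, 353 and 353 CPM in oe-AQP1 samples 1 to 3 and 276, 327 and 320 CPM in oe-NC samples 1 to 3 and was higher (log2FC = 0.20 ± 0.06 (SE), FDR = 0.0255). The groups did not overlap in either gene. Lamp2 was lowest in oe-NC sample 1, and without that sample its log2FC was 0.12 (FDR = 0.000104). Without any 1 of the oe-AQP1 samples Lamp2 did not pass (log2FC from 0.19 to 0.20).

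Laptm4a and Scarb2 showed the largest increases among membrane proteins. Laptm4a, a small protein of late endosomes and lysosomes, had 412, 393 and 402 CPM in oe-AQP1 samples 1 to 3 and 273, 300 and 304 CPM in oe-NC samples 1 to 3 (log2FC = 0.46 ± 0.04 (SE), FDR = 3.31e-05). Scarb2, also called LIMP-2, is a receptor that carries a hydrolase to lysosomes and had 205, 201 and 200 CPM in oe-AQP1 samples 1 to 3 and 144, 157 and 153 CPM in oe-NC samples 1 to 3 (log2FC = 0.41 ± 0.04 (SE), FDR = 3.91e-05). In both genes the lowest oe-AQP1 sample exceeded the highest oe-NC sample. Litaf, which acts in endosomal sorting, was higher (221 ± 8.19 against 190 ± 9.42 CPM, log2FC = 0.21, FDR = 0.00537).

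Hgsnat, the acetyltransferase that works on heparan sulfate from within the membrane, showed the largest decrease of a membrane protein (27.4, 27.2 and 27.6 against 40.9, 41.3 and 38.5 CPM, log2FC = -0.55 ± 0.05 (SE), FDR = 3.36e-05). The transporters Abca2 (54.3 ± 2.31 against 70.8 ± 6.89 CPM, log2FC = -0.38, FDR = 0.00233) and Abcb9 (4.15 ± 0.306 against 5.88 ± 0.954 CPM, log2FC = -0.49, FDR = 0.025) were lower too, though Abcb9 did not pass without any 1 of the oe-AQP1 samples or without oe-NC sample 1 (log2FC from -0.54 to -0.37). The tetraspanin Cd63 was the most abundant membrane gene at 469 CPM per kilobase. It had 649, 642 and 643 against 561, 680 and 714 CPM, where oe-NC sample 1 was below and the other oe-NC samples were above the oe-AQP1 range (log2FC = -0.01, FDR = 0.941). Without oe-NC sample 1 its log2FC was -0.12 (FDR = 7.01e-05). The macrosialin gene Cd68 (log2FC = 0.15, FDR = 0.0764), the cholesterol exporter Npc1 (log2FC = -0.02, FDR = 0.825), the cystine exporter Ctns (log2FC = -0.01, FDR = 0.904) and the cation channel Mcoln1 (log2FC = 0.04, FDR = 0.511) did not pass.

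In the proton pump, 13 of 14 genes were tested, 2 were higher (15.4%) and 5 lower (38.5%), where 16.0% and 16.6% of all genes tested were, with a median log2FC of -0.15. Tcirg1 (chr19:3946050-3957917 on GRCm39), the a3 isoform of the membrane subunit a, had 234, 236 and 232 CPM in oe-AQP1 samples 1 to 3 and 95.4, 81.5 and 82 CPM in oe-NC samples 1 to 3. Each oe-AQP1 sample was more than double the highest oe-NC sample (log2FC = 1.44 ± 0.06 (SE), FDR = 2.4e-08), past both thresholds. The isoform a1, Atp6v0a1, moved oppositely, with 127, 122 and 124 against 164, 154 and 146 CPM (log2FC = -0.32 ± 0.05 (SE), FDR = 0.000787), with no overlap. Per kilobase of transcript, the level of Tcirg1 was 87.1 CPM per kilobase in oe-AQP1 cells and 32.1 in oe-NC cells, and that of Atp6v0a1 was 30.1 CPM per kilobase in oe-AQP1 cells and 37.4 in oe-NC cells. The isoforms a2 (Atp6v0a2) and a4 (Atp6v0a4), chosen after their values were seen, did not pass (log2FC = 0.02, FDR = 0.789 and log2FC = -0.16, FDR = 0.0527).

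The proteolipid Atp6v0c, the most abundant pump gene at 283 CPM per kilobase, was at 429, 440 and 422 against 392, 376 and 385 CPM (log2FC = 0.16 ± 0.03 (SE), FDR = 0.00453). The subunits Atp6v0d1 (log2FC = -0.19, FDR = 0.00379) and Atp6ap1 (log2FC = -0.25, FDR = 0.00156) fell, Atp6v0b (log2FC = 0.03, FDR = 0.585) and Atp6v1h (log2FC = 0.01, FDR = 0.804) did not pass, and Atp6v0d2, the isoform known from osteoclasts, had no count in any sample. Of 4 genes that regulate the pump, 2 were lower, where 16.6% of all genes tested were. They were Ncoa7 (11.6, 9.96 and 11.2 against 13.7, 15.5 and 15 CPM, log2FC = -0.44, FDR = 0.00416) and Dmxl2 (78.9 ± 3.52 against 87.6 ± 3.49 CPM, log2FC = -0.15, FDR = 0.0429), the latter named after its values were seen. Dmxl2 did not pass without any 1 of the oe-AQP1 samples or without oe-NC sample 2, and its log2FC with single samples left out was -0.18 to -0.11. Its call was also lost with DESeq2, with library size only, with either other low-count filter and with the replicate block. The summed level of pump genes was 1553, 1562 and 1546 CPM in the oe-AQP1 samples and 1452, 1452 and 1435 CPM in the oe-NC samples, higher in every oe-AQP1 sample. Without Tcirg1 the sum was 1320, 1326 and 1314 against 1357, 1370 and 1353 CPM, lower in every oe-AQP1 sample. Of 15 further pump genes outside the KEGG list, 11 were tested and 8 did not pass. Their summed level was 1271, 1263 and 1270 CPM in the oe-AQP1 samples and 1296, 1390 and 1393 CPM in the oe-NC samples. The other 3 (27.3%, where 16.6% of all genes tested were) were lower and were named after their values were seen: the catalytic subunit Atp6v1a (327 ± 3.99 against 410 ± 9.44 CPM, log2FC = -0.33, FDR = 4.86e-05), Atp6v0e2 and Atp6ap2, the last of which did not pass with some single sample left out (FDR up to 0.0832).

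Of 32 sorting and coat genes, 31 were tested, 4 were higher (12.9%), 5 lower (16.1%) and 22 not past the threshold, shares near the 16.0% and 16.6% of all genes tested. The higher count was 0 without oe-AQP1 sample 2, 1 without oe-AQP1 sample 3 and 2 without oe-NC sample 2. Of all genes, 1856, 1869 and 2094 were higher in these omissions, in that order. The lower count was 3 without oe-AQP1 sample 1 or 3, 9 without oe-NC sample 1 and 10 with sample quality weights. Of all genes, 1856 were lower without oe-AQP1 sample 1, 1762 without oe-AQP1 sample 3 and 3331 without oe-NC sample 1. Their count with sample quality weights is not given here. Igf2r, the large mannose 6-phosphate receptor that also clears insulin-like growth factor 2, had 57.4, 58.3 and 61.2 CPM in oe-AQP1 samples 1 to 3 and 103, 91.4 and 95.8 CPM in oe-NC samples 1 to 3. This was the largest decrease of the group, with no overlap (log2FC = -0.71 ± 0.05 (SE), FDR = 4.71e-06). M6pr, the small mannose 6-phosphate receptor, was at 195, 195 and 195 against 182, 197 and 201 CPM and did not pass (log2FC = 0.01, FDR = 0.828). Sumf1, which activates sulfatases (70.4 ± 1.5 against 89.2 ± 2.28 CPM, log2FC = -0.34, FDR = 0.000199) and Nagpa, which uncovers the mannose 6-phosphate tag (34.6 ± 2.56 against 41.9 ± 3.33 CPM, log2FC = -0.28, FDR = 0.0169), were lower, while Gnptab, which adds its phosphate, did not pass (log2FC = 0.07, FDR = 0.262). Nagpa did not pass without oe-AQP1 sample 1 or 3 (log2FC = -0.27 and -0.22).

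Of the coat genes, the clathrin light chain Cltb had 51.8, 43.5 and 45.2 against 57.9, 58.2 and 58.9 CPM and fell (log2FC = -0.32, FDR = 0.00355). The clathrin heavy chain Cltc did not pass (log2FC = -0.06, FDR = 0.265), but did without oe-NC sample 1 (log2FC = -0.09, FDR = 0.000756) and with sample quality weights (log2FC = -0.08, FDR = 0.0172). The adaptor subunit Ap1s1, the most abundant gene of the group per kilobase, fell (log2FC = -0.16, FDR = 0.0177), and did not pass without any 1 of the oe-AQP1 samples (log2FC from -0.17 to -0.15). Higher were the adaptor subunits Ap1s3 (log2FC = 0.38, FDR = 0.0322), Ap3b1 (log2FC = 0.16, FDR = 0.0148) and Ap3m2 (log2FC = 0.23, FDR = 0.0151) and the Golgi adaptor Gga3 (log2FC = 0.17, FDR = 0.0238). None of these 4 passed without oe-AQP1 sample 2, at similar changes (log2FC = 0.36, 0.16, 0.21 and 0.15 in that order). Ap1s3, Ap3b1 and Gga3 also did not pass without oe-AQP1 sample 3 (0.32, 0.14 and 0.16), Ap1s3 and Gga3 without oe-NC sample 2 (0.37 and 0.15), and Gga3 without oe-AQP1 sample 1 or oe-NC sample 3 (0.18 and 0.14). With every gene of at least 1 count kept in the test, none of the 4 passed, and with DESeq2 Ap3m2 (FDR = 0.0781) and Gga3 (FDR = 0.0677) did not.

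Of the 19 lysosome genes not tested, 13 had no count in any sample, which at 3 counts per library allows up to 0.137 to 0.163 CPM. They were the cathepsins Ctsc, Ctse, Ctsg, Ctsh, Ctsj and Ctsm, the hyaluronidases Hyal4, Hyal5 and Spam1, and Dnase2b, Psapl1, Lamp3 and Atp6v0d2. The others, Ctsf, Ctsw, Hyal6, Laptm5, Slc11a1 and Ap3b2, had at most 8 counts in a sample. These limits cover counting error only.

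Of 5 regulators outside the KEGG list, 1 was lower and 1 higher, where 16.6% and 16.0% of all genes tested were. Tfeb, a master activator of lysosome genes, was lower (28.2, 28.1 and 27.5 against 39, 31.6 and 32.6 CPM, log2FC = -0.29 ± 0.08 (SE), FDR = 0.0171), and did not pass without any 1 of the oe-AQP1 samples (log2FC from -0.30 to -0.28). Its relatives Tfe3 (log2FC = -0.03, FDR = 0.793), Mitf (log2FC = 0.12, FDR = 0.576) and Tfec (log2FC = -0.22, FDR = 0.128) did not pass, and Zkscan3, a repressor of autophagy genes, was higher (log2FC = 0.20, FDR = 0.0245) and was named after its values were seen. Leaving out single samples, the log2FC of Zkscan3 was 0.17 to 0.24 and its FDR reached 0.107. Of 16 genes of nutrient sensing at the lysosome, 15 were tested, 1 was higher (Fnip1) and 3 lower (Lamtor1, Lamtor4 and Mtor), names that were given after the values were seen. The 1 and 3 of 15 stand beside 16.0% and 16.6% of all genes tested, and Lamtor4 did not pass with some single sample left out (FDR up to 0.108). Of 31 autophagy genes, 7 were higher (22.6%) and 8 lower (25.8%), where 16.0% and 16.6% of all genes tested were, with a median log2FC of 0.01. Of these 15 calls, 9 were lost with some single sample left out.

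Of 34 other lysosomal proteins outside the KEGG list, 31 were tested, 6 were higher (19.4%) and 7 lower (22.6%), where 16.0% and 16.6% of all genes tested were. Of these 13 calls, 2 were lost with some single sample left out. The cation channel gene Mcoln3 had 3.08, 2.5 and 2.53 against 0.968, 1.2 and 0.61 CPM (log2FC = 1.58 ± 0.26 (SE), FDR = 0.0011) and the ribonuclease gene Rnaset2b had 29.5, 25.2 and 35.3 against 5.4, 12 and 15.8 CPM (log2FC = 1.54 ± 0.28 (SE), FDR = 0.00224). Rnaset2b and its near-identical copy Rnaset2a can share reads, so the value of each is uncertain. Progranulin (Grn), the most abundant of the list per kilobase, had 1052, 1048 and 1016 against 603, 560 and 588 CPM (log2FC = 0.83, FDR = 5e-08). Of 15 genes of endolysosomal antigen processing and sensing, 7 were tested, 4 were higher, where 16.0% of all genes tested were, and 3 did not pass. Of the 4, Slc15a4, named after its values were seen, did not pass with some single sample left out (FDR up to 0.125). Unc93b1, which escorts nucleic acid sensors to endolysosomes, had 78.7, 78 and 78.5 against 39.1, 37.7 and 35.7 CPM (log2FC = 1.07 ± 0.05 (SE), FDR = 9.07e-08), and Tlr3, a sensor of double-stranded RNA, had 108, 102 and 111 against 17.6, 19.4 and 20.7 CPM (log2FC = 2.48 ± 0.07 (SE), FDR = 1.35e-09).

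Markers of other cells were read in the same samples, and their counts stand beside 16.0% higher and 16.6% lower of all genes tested. Of 12 macrophage markers, 4 were tested, 1 was higher and 2 lower, and Adgre1 and Tyrobp had no count in any sample. Their summed level was 99.8, 95.5 and 97 CPM in the oe-AQP1 samples and 43.4, 43.8 and 41.8 CPM in the oe-NC samples, and Mpeg1, the most abundant, was higher in oe-AQP1 cells (71.8, 67.8 and 69.6 against 3.26, 3.39 and 2.67 CPM). Without Mpeg1 the sum was 28.1, 27.8 and 27.4 against 40.1, 40.4 and 39.1 CPM, lower in every oe-AQP1 sample, with Csf1r (2.83, 3.37 and 3.7 against 8.81, 10 and 9.48 CPM) and Lyz2 (log2FC = -0.52, FDR = 0.000273) both lower. Of 5 osteoclast markers, 2 were tested, Ctsk and Acp5, which are lysosome genes themselves, and Calcr and Dcstamp had no count. Their summed level was 54.4, 49.7 and 52.6 CPM in the oe-AQP1 samples and 61.9, 63.4 and 63.4 CPM in the oe-NC samples, and Ctsk, the most abundant, was lower (log2FC = -0.37, FDR = 0.00128). Of 4 fibroblast markers, 2 were tested, and Pdgfra and Dcn had at most 1 count in a sample. Their summed level was 13.3, 12.6 and 13.8 CPM in the oe-AQP1 samples and 26.6, 20.8 and 18.1 CPM in the oe-NC samples, and Col1a1, the most abundant, was lower (log2FC = -0.73, FDR = 0.00238). Of 4 endothelial markers, Pecam1 was tested and did not pass, Kdr had no count, and the summed level was 1, 1.7 and 1.6 CPM in the oe-AQP1 samples and 1.4, 0.9 and 1.5 CPM in the oe-NC samples. Of 5 T cell markers, none was tested, Trbc2 had no count, Cd3e was the most abundant, and no marker had more than 2 counts in a sample, for a summed level of 0 to 0.1 CPM. The part of these markers in the lysosome results was not tested.

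Reads of neighbouring genes may enter some values. The exons of 61 lysosome genes overlap those of another gene in GENCODE M39, and 20 of these share at least 20% of their exon bases. Of the 20, 7 passed FDR 0.05: Ctsd, Ctsl, Ctso, Ctsz, Gusb, Lamp1 and Sgsh. Of all genes tested, 16.0% passed as higher and 16.6% as lower. The sources used here do not state whether counting used strand, so such reads cannot be told apart. Entpd4 and Entpd4b are near-identical copies and are uncertain.

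Promoters were searched for the letters of known elements, in RefSeq sequences of GRCm38.p6 around the transcription start, on both strands. Of the 135 lysosome genes, 106 matched by symbol, with 125 promoters. The CLEAR core TCACGTGA, the element that TFEB and its relatives bind, lay in 11 of 125 promoters (8.8%), against 0.974% of all 32851 promoters. The E-box CACGTG, which the CLEAR core contains, lay in 25 of 125, against 7.15% of all. Letters GAAANNGAA, the core of the interferon-stimulated response element, lay in 12 of 125 (9.6%), against 8.56%. By direction, genes that held the CLEAR core numbered 5 of 38 lower, 1 of 14 higher and 4 of 40 not past the threshold, against 1.12% of all genes, and genes that held the E-box numbered 14 of 38, 1 of 14 and 8 of 40, against 8.09% of all genes. Genes that held the interferon core numbered 3 of 38, 4 of 14 and 3 of 40, against 9.76% of all genes, and the 4 include Ctss, which the low-count filter kept through the samples where it was high. A match describes letters, does not depend on the samples and does not show binding. The promoters of all genes include those of genes not tested here.

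Chosen after the values were seen, these are a promoter of each of the 2 genes past both thresholds, with the interferon core letters in capitals (the reverse strand in Tcirg1), and those of 3 holders of the CLEAR core in capitals: Igf2r, the largest decrease among them, Ctsd, the most abundant, and Gla, which rose. RefSeq lists 3 promoters for Tcirg1, and the other 2 hold none of the motifs searched. Each is written 5′ to 3′ along the gene's strand, with coordinates on GRCm38.p6. The CLEAR core stood in promoters of genes that fell and of a gene that rose. The interferon core likewise stood in promoters of genes that fell, namely Lamp1, Ncoa7 and Ppt1, which are not shown.
Tcirg1, chr19:3905181-3905480, minus strand: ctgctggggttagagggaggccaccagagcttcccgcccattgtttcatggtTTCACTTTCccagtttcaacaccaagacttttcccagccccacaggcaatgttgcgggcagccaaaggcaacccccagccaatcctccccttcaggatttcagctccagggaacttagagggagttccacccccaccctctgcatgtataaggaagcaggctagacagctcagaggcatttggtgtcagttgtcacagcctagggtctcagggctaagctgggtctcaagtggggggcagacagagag
Ctss, chr3:95526536-95526835, plus strand: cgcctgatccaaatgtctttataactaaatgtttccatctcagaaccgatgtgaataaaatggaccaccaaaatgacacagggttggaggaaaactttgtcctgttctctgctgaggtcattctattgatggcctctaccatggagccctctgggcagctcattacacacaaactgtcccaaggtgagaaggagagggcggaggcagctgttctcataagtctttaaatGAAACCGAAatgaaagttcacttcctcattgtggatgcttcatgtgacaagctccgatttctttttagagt
Igf2r, chr17:12769657-12769956, minus strand: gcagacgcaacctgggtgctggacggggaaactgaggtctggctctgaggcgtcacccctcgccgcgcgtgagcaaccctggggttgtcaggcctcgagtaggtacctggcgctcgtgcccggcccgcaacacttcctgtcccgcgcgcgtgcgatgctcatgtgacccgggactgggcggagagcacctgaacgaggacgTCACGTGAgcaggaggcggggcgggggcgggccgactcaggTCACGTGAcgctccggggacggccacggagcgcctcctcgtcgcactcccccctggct
Ctsd, chr7:142387778-142388077, minus strand: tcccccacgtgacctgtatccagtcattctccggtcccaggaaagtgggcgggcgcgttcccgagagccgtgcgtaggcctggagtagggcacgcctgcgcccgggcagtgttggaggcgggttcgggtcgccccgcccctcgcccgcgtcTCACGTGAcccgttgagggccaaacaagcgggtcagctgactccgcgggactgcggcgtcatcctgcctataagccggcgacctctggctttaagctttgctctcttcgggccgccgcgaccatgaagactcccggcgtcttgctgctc
Gla, chrX:134600956-134601255, minus strand: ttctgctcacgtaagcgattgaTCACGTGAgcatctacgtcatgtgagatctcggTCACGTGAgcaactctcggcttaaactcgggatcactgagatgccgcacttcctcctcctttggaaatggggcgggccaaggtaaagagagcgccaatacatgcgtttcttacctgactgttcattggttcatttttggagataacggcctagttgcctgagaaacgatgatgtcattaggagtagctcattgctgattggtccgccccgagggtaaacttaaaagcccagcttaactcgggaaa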

How the data were processed

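The authors deposited expected counts per gene, unscaled, in 6 samples, with annotation and with group means that were not used. The submitters' processing notes name fastp, HISAT2, featureCounts, Subread and the builds GRCm38 and mm10, whereas the paper's methods name GRCm39. Of the 135 lysosome genes, 53 had a count that was not whole. Expected counts were rounded, filtered with filterByExpr, scaled by TMM in edgeR 4.0.16 and compared by limma-voom (limma 3.58.1, R 4.3.3). The paper's methods name limma-voom, TMM and the thresholds, not the rounding or the filter. Alternatives included edgeR's quasi-likelihood test, DESeq2 1.42.0, other scalings and filters, a replicate block and leaving out each sample. Gene lengths and positions came from GENCODE M39 canonical transcripts. Named genes were taken from all past both thresholds, the 4 largest increases and decreases past FDR 0.05 in each role without overlap and averaging 10 counts or more in the higher group, the 3 most abundant per kilobase in each role, and fixed landmarks; of each other list, its counts and its members past both thresholds. Any other gene named was chosen after its values were seen. The members and lists were chosen with earlier results of these data known.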

Additional observations from a re-analysis of the deposited data

How the results depend on the processing

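Of 1071 values for 67 genes of the naming rule under the alternatives, 1000 kept direction and side of the threshold, 47 lost the call, 8 gained it and 16 changed sign, and 44 genes kept both throughout. None of the 60 lysosome calls changed sign under an alternative that tested it, and 44 to 59 kept the call when 1 sample was left out. No scaling moved the median of all genes by more than 0.013. Leaving out single samples gave 10 to 19 lysosome genes higher, with membrane proteins higher 3 to 6, sorting and coat genes higher 0 to 4 and lower 3 to 9, and luminal partners lower 1 to 3. Over all genes the same omissions gave 1856 to 3125 higher and 1745 to 3331 lower. With at least 10 counts in every sample, 1 lysosome gene passed both thresholds, since Ctss was no longer tested. With sample quality weights 7 of 47 hydrolases tested were higher and 10 of 31 sorting and coat genes lower. Sorting and coat genes higher numbered 2 with DESeq2 and 0 when every gene with at least 1 count was kept. The cause was not tested. Counts over all genes in these settings are not given here, so no change of these classes is read from them. Sign changes, all of genes not past the threshold in the reported fit, were Cd63 at 0.004 by library size only and 0.000 with at least 10 counts, Npc1 at 0.015, Atp6v1h at -0.003, M6pr at -0.018 and Tfe3 at 0.011 with sample quality weights, and Atp6v1h at -0.003 and M6pr at -0.004 with at least 1 count. Leaving out single samples, log2FC ranged from -0.115 to 0.060 for Cd63, -0.049 to 0.042 for Ctns, -0.044 to 0.023 for Npc1, -0.006 to 0.029 for Atp6v1h, -0.030 to 0.042 for M6pr and -0.078 to 0.028 for Tfe3.

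Replicate numbers showed no sign of pairing: deviations of same-numbered samples correlated at 0.009, -0.004 and -0.068. Counting error in genes with few counts enters these values, so they cannot exclude a shared preparation. With the number as a replicate block, 16 of 116 lysosome genes tested were higher and 41 lower, at a median log2FC of -0.10. Of the 60 calls, 57 were kept. Counts over all genes with this block are not given here. Depth limits genes with few counts, such as Ctss.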
